A study of Mus musculus with 12 samples.

Results

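The nuclear genes of the respiratory chain and ATP synthase were followed in liver RNA from 12 male mice. A gene belonged to the set if its symbol carried one of the stems Nduf (a, b, c, s or v), Sdh (a to d), Uqcr, Cox (4 to 8) or Atp5 and if its mean over the 12 libraries was at least 1 RPKM (reads scaled by transcript length and by the reads of the library). Of 22456 genes in the expression table, 92 carried such a symbol and 87 passed the level. The 87 members comprised 36 genes of complex I, 4 of complex II, 8 of complex III, 15 of complex IV, 15 of complex V and 9 assembly or auxiliary factors that share the symbol stems (Ndufaf1 to Ndufaf7, Atp5s and Atp5sl). Complex IV here includes Ndufa4, Ndufa4l2, which was placed there only as its paralogue, and Cox7a2l, a supercomplex factor. Because the members were chosen on their mean level, that level is a description and was not tested. The values nearest the limit were 2.04 RPKM for Cox6b2 and 2.19 RPKM for Ndufa4l2 on the inside, and 0.329 RPKM for Cox4i2 and 0.204 RPKM for Cox8b on the outside.

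Lpin1-/- mice carry the fld (fatty liver dystrophy) mutation of lipin 1, a phosphatidate phosphatase that also acts in the nucleus, and were compared with Lpin1+/+ littermates on the BALB/cByJ strain. Mice of both genotypes were 2 to 8 months old and ate chow. Each genotype gave a fasted and a refed group, hence 4 groups of 3 mice: every mouse was fasted for 16 hours, and the refed mice then ate for 5 hours. The mutation is present in every tissue of the animal, so a difference in liver need not arise in the liver.

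Complexes I to IV pass electrons from NADH and succinate to oxygen, and complexes I, III and IV pump protons out of the mitochondrial matrix. Complex V, the ATP synthase, uses the returning protons to make ATP. Most of their subunits are encoded in the nucleus and imported, whereas a core of each complex other than complex II is encoded in mitochondrial DNA. In liver this machinery oxidises the products of fatty acid breakdown during fasting and supplies the ATP for gluconeogenesis. Of the mitochondrially encoded subunits, 13 of 13 were listed at 0 in every library, so the nuclear genes alone could be followed.

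Several libraries stood apart. The deepest library held 1.34 times the reads of the shallowest, as estimated from the spacing of low RPKM values. Summed over the 87 members, the level ran from 17699 RPKM in fasted Lpin1+/+ replicate 1 to 46221 RPKM in fasted Lpin1-/- replicate 1, a 2.61-fold range. Both of these are fasted libraries. Fasted Lpin1+/+ replicate 1 had the lowest value of all 12 libraries for 57 of the 87 members, and fasted Lpin1-/- replicate 1 had the highest for 42. Lpin1 itself was at 22.0, 0.726 and 1.76 RPKM in the 3 fasted Lpin1+/+ libraries, at 0.784 to 2.92 in refed Lpin1+/+ and at 0.00573 to 0.0597 in the 6 Lpin1-/- libraries. The genotypes did not overlap, although the difference missed the threshold (limma adjusted p = 0.056 fasted and 0.23 refed), and the library with the low member levels was also the one with the high Lpin1 level. All 6 hepatocyte markers were detected, with a summed level of 32111 to 72424 RPKM. All 6 markers of Kupffer cells and macrophages were detected as well, at 68.0 to 163 RPKM in fasted Lpin1+/+, 116 to 243 in fasted Lpin1-/-, 41.2 to 273 in refed Lpin1+/+ and 36.4 to 88.1 in refed Lpin1-/-. Markers of stellate cells were at 65.9 to 154 RPKM in fasted Lpin1+/+ and at 194 to 285 RPKM in fasted Lpin1-/- liver, without overlap. In refed liver they overlapped, at 71.4 to 199 and 156 to 197 RPKM, and 0 of the 6 passed the threshold in any comparison. The 2 brown fat markers, 1 of them averaging under 0.5 RPKM, were at 0.0843 to 0.277 and 0.553 to 5.77 RPKM in fasted liver. In refed liver they were at 0.0974 to 0.286 and 0.911 to 1.28 RPKM, and 0 passed. Endothelial, cholangiocyte and erythroid markers overlapped between the genotypes in both states. Of the Kupffer cell and macrophage markers 1 of 6 passed the threshold in at least 1 comparison, and of the endothelial markers 1 of 5. No hepatocyte, cholangiocyte or erythroid marker did. The part of these other cells in the results was not tested. In such bulk tissue, fewer cells of a type and less RNA per cell cannot be told apart.

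**Figure D1:**
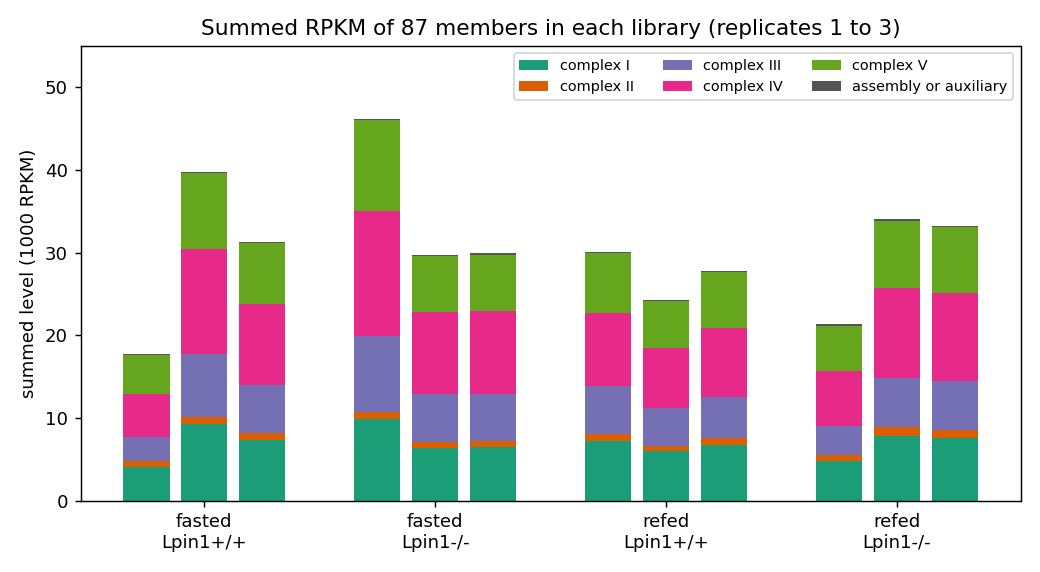
Summed RPKM of the 87 members in each of the 12 libraries, stacked by complex. The horizontal axis gives the group, with replicates 1 to 3 from left to right, and the vertical axis the summed level in units of 1000 RPKM. The lowest bar, 17699 RPKM, and the highest, 46221 RPKM, are both fasted replicate 1 libraries.

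The members varied together from library to library. In fasted Lpin1+/+ liver their summed levels were 17699, 39795 and 31304 RPKM, and in fasted Lpin1-/- liver 46221, 29715 and 29951 RPKM. They were 30088, 24310 and 27785 RPKM in refed Lpin1+/+ and 21348, 34031 and 33261 RPKM in refed Lpin1-/-. The ranges of all 4 groups overlapped. After the group means were taken out, the deviation of a member from its group correlated with the mean deviation of the other members with a median r of 0.964 over the 12 libraries, and 68 of 87 members lay above 0.8. This is a description, since the points share their libraries. The least similar were Sdha, the catalytic flavoprotein of complex II, with r = -0.63, Atp5sl with r = -0.58, Ndufs1, the largest subunit of complex I, with r = -0.41, and Atp5a1, the α subunit of the ATP synthase, with r = -0.30.

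The same libraries departed from the others by transcript length over all tested genes, the members included. Length here is that of the longest GENCODE M21 transcript of a gene, which need not be the main form in liver. In fasted Lpin1+/+ replicate 1 the median member lay 0.69 below its own mean of 12 libraries on the log2(RPKM + 1) scale. The median was -0.53 for all 635 tested genes with a transcript shorter than 1000 bases, -0.86 for 63 ribosomal protein genes, and 0.31 for the 6119 genes with a transcript of 3000 bases or more. In fasted Lpin1-/- replicate 1 the signs were opposite, at 0.46 for the members, 0.49 for short transcripts, 0.90 for ribosomal protein genes and -0.47 for long transcripts. In refed Lpin1-/- replicate 1 the median member was at -0.42, short transcripts were at -0.47 and long transcripts at 0.31. Among the members, the 37 with a transcript shorter than 1000 bases moved further in fasted Lpin1+/+ replicate 1, at -0.82, than the 49 longer ones, at -0.45. The part of transcript length in the differences between groups was not tested.

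**Figure D2:**
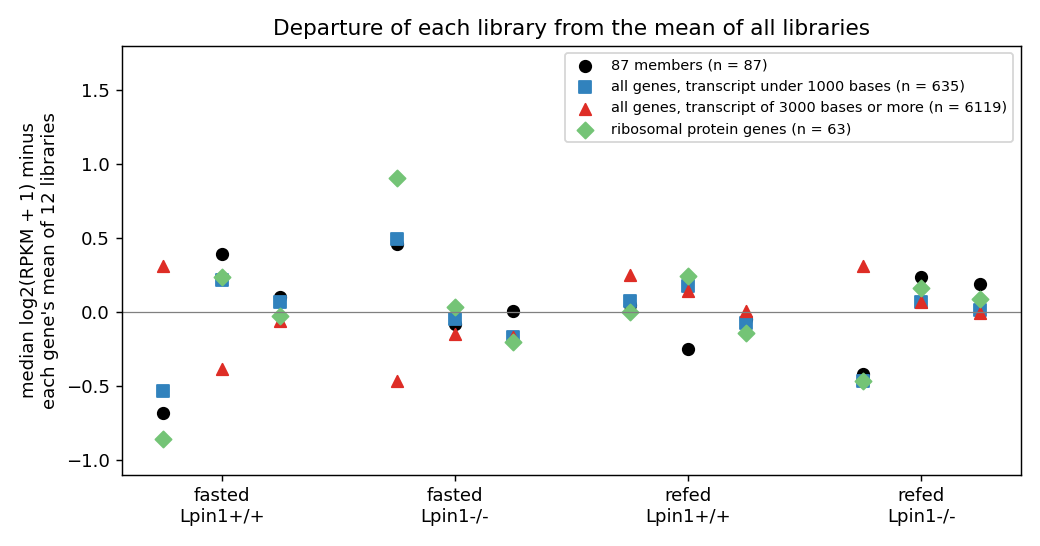
Median departure of each library from the mean of the 12 libraries, on the log2(RPKM + 1) scale, for the 87 members, all tested genes with short or long transcripts, and ribosomal protein genes. Libraries are arranged by group, replicates 1 to 3 from left to right. The members sit at -0.69 in fasted Lpin1+/+ replicate 1 and at 0.46 in fasted Lpin1-/- replicate 1, on the side of the short transcripts and opposite to the long ones.

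The median SD of a member within fasted Lpin1+/+ liver was 0.55 on the log2(RPKM + 1) scale, against 0.34 for all tested genes. It was 0.30 against 0.28 in fasted Lpin1-/-, 0.19 against 0.23 in refed Lpin1+/+ and 0.41 against 0.22 in refed Lpin1-/- liver.

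Among the structural subunits the levels, which RPKM scales by length, covered a wide range within each complex. In complex I the highest mean was 559 RPKM for Ndufb9, an accessory subunit, and the lowest was 39.5 RPKM for Ndufs1. In complex II the means ran from 115 RPKM for Sdha to 325 RPKM for Sdhd, a membrane anchor, and in complex III from 171 RPKM for the core protein gene Uqcrc1 to 1402 RPKM for Uqcrq. In complex IV the highest was Ndufa4 at 1421 RPKM, a subunit first assigned to complex I, and in complex V it was Atp5e, the ε subunit, at 1435 RPKM. In each set of tissue forms 1 paralogue held most of the level. Of the 3 genes for the c subunit of the ATP synthase ring, which encode the same mature protein, Atp5g3 averaged 1114 RPKM, Atp5g1 113 RPKM and Atp5g2 3.02 RPKM. Cox6a1 averaged 934 RPKM and its heart and muscle paralogue Cox6a2 0.0885 RPKM. Cox7a2 averaged 676 RPKM and the muscle form Cox7a1 4.37 RPKM. Cox6b1 was at 886 RPKM against 2.04 for the testis form Cox6b2, and Cox8a at 1216 RPKM against 0.204 for Cox8b. The 5 skeletal and heart muscle markers summed to 0.484 to 1.73 RPKM per library.

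The first comparison asked whether refeeding changed the members in Lpin1+/+ liver. None of the 87 passed an adjusted p of 0.05 (limma on log2(RPKM + 1), Benjamini-Hochberg adjustment over the 11507 genes tested), and 0 had an unadjusted p under 0.05. Among all genes tested 1.72% passed. The median difference of the members, refed minus fasted, was -0.03 on the log2 scale, with 37 above and 50 below 0, beside a median of 0.19 for all genes. The members ran from -0.28 for Sdhd to 0.57 for Ndufaf5, a complex I assembly factor. Ndufaf5 was at 2.33, 8.06 and 5.39 RPKM in fasted and at 7.81, 7.94 and 7.03 RPKM in refed Lpin1+/+ liver, and the ranges overlapped (SE 0.39, limma adjusted p = 0.56). Catalytic subunits were close to level. Atp5b, the catalytic β subunit, averaged 737 ± 55.7 RPKM (SD, n = 3) in fasted and 669 ± 136 RPKM in refed liver, and Ndufv1, which binds NADH, 121 ± 13.5 and 121 ± 20.5 RPKM.

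In Lpin1-/- liver, where 20.7% of all genes changed with refeeding, 3 of the 87 members did. Ndufaf3 and Ndufaf4, which are both assembly factors of complex I, rose, and Ndufa4l2, a paralogue of Ndufa4 known to be induced in hypoxia, fell. Of all genes 17.8% rose and 2.92% fell. Of the 78 genes counted with complexes I to V, Ndufa4l2 was the 1 that passed, and it was counted there only as a paralogue. The median member was at -0.12, with 31 above and 56 below 0, and the median of all genes at 0.25.

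Ndufaf3 (chr9:108565537-108567434, minus strand of GRCm38) was at 10.1, 9.80 and 13.8 RPKM in fasted and at 16.8, 31.4 and 27.5 RPKM in refed Lpin1-/- liver. The 2 groups did not overlap, and the log2 difference was 1.07 (SE 0.26, limma adjusted p = 0.016). Ndufaf4 (chr4:24898083-24905001, plus strand) was at 56.6, 45.0 and 51.9 RPKM in fasted and at 75.3, 105 and 89.6 RPKM in refed Lpin1-/- liver, again without overlap (0.80, SE 0.23, limma adjusted p = 0.030). Ndufa4l2 (chr10:127514967-127517154, plus strand) was at 3.92, 3.99 and 3.24 RPKM in fasted and at 1.19, 1.24 and 1.54 RPKM in refed Lpin1-/- liver (-1.02, SE 0.22, limma adjusted p = 0.0096). It was low throughout, and fasted Lpin1+/+ liver had 1.21, 1.69 and 1.51 RPKM, which overlapped the refed Lpin1-/- values.

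The largest differences among the other subunits went both ways and did not pass. Atp5e was at 3200, 1514 and 1380 RPKM in fasted and at 599, 1314 and 1157 RPKM in refed Lpin1-/- liver (-0.96, SE 0.53, limma adjusted p = 0.22). Uqcrq, a small subunit of complex III, had a difference of -0.71 (SE 0.38, limma adjusted p = 0.20). Ndufs7, an iron-sulfur subunit of complex I, was at 99.4, 96.7 and 112 RPKM in fasted and at 122, 183 and 177 RPKM in refed liver, with no overlap (0.62, SE 0.22, limma adjusted p = 0.070). All 4 genes of complex II were above 0, by 0.01 to 0.52, and 14 of 15 genes of complex IV were below 0, with a median of -0.32. With each library rescaled by its median ratio to a common reference, all genes then had a median of -0.03 in place of 0.25, and the members -0.45 in place of -0.12. The split over all genes moved from 2046 higher and 336 lower to 1024 and 706, and of the members only Ndufa4l2 kept its call (-1.29, limma adjusted p = 0.0044). The count of 3 members became 6 without fasted Lpin1+/+ replicate 1 (with Ndufaf6 lower and Ndufaf7 and Ndufs7 higher), 5 without refed Lpin1-/- replicate 1 (with Ndufs7 and Atp5g1 higher), and 1, Ndufa4l2, without fasted Lpin1-/- replicate 1 or 2 or refed Lpin1-/- replicate 2 or 3.

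**Figure D3:**
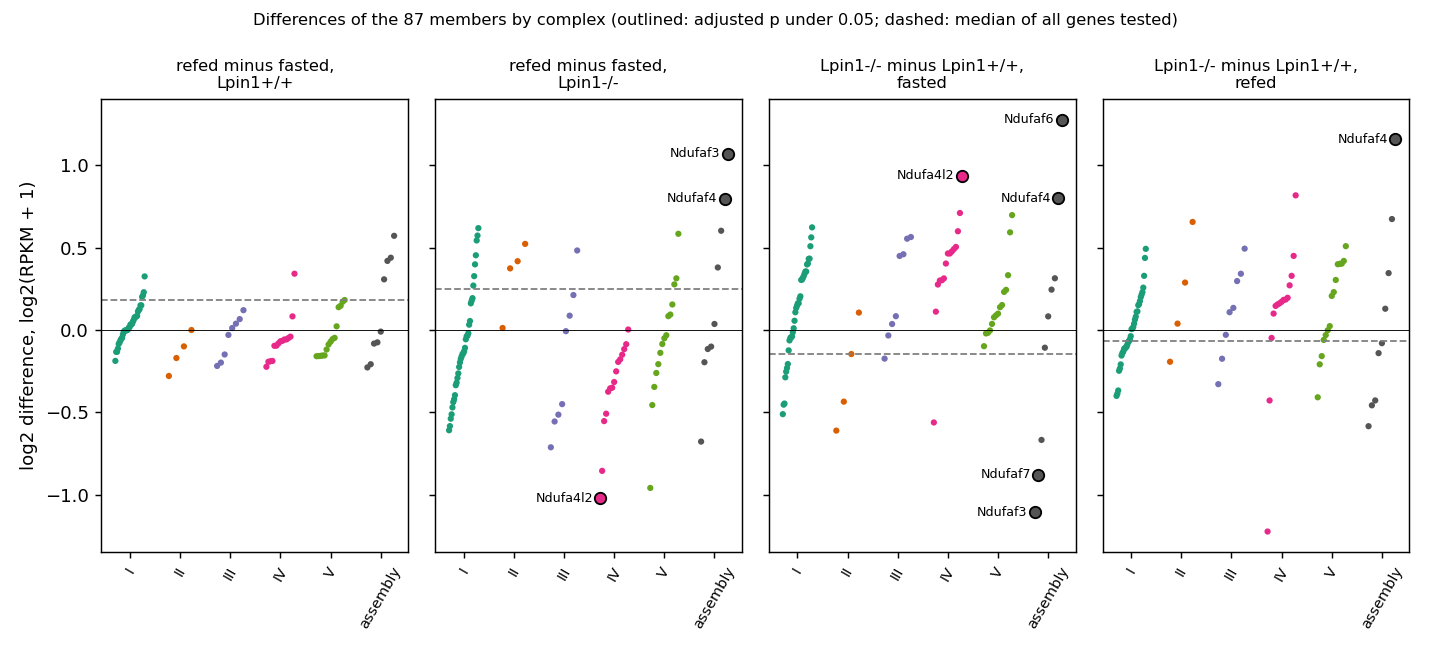
Log2 differences of the 87 members in the 4 comparisons, grouped by complex. Each point is a gene, outlined and named where limma's adjusted p was under 0.05, and the dashed line is the median of all 11507 genes tested. Named points appear among the assembly factors and at Ndufa4l2, and the members' medians lie at -0.03, -0.12, 0.16 and 0.08 from left to right.

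The genotypes were next compared in fasted liver, where 18.8% of all genes differed, 5.63% higher and 13.2% lower in Lpin1-/-. Of the members, 5 of 87 passed: Ndufaf6, Ndufaf4 and Ndufa4l2 were higher and Ndufaf3 and Ndufaf7 lower in Lpin1-/- liver. Thus 4 of the 9 assembly or auxiliary factors passed, in both directions, and of the 78 genes counted with complexes I to V only the paralogue Ndufa4l2 did. The median member was 0.16 higher in Lpin1-/-, with 60 above and 27 below 0, beside a median of -0.14 for all genes.

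Ndufaf6 (chr4:11051045-11076205, minus strand), a complex I assembly factor, was at 7.40, 20.2 and 12.3 RPKM in fasted Lpin1+/+ and at 40.4, 27.5 and 27.5 RPKM in fasted Lpin1-/- liver. The groups did not overlap (1.28, SE 0.30, limma adjusted p = 0.013). Ndufaf4 was at 27.4, 33.0 and 26.6 RPKM in fasted Lpin1+/+ liver, below all 3 Lpin1-/- values given above (0.80, SE 0.23, limma adjusted p = 0.031). Ndufa4l2 was 2.53-fold higher in mean level, at 1.47 ± 0.243 RPKM in Lpin1+/+ and 3.72 ± 0.413 RPKM in Lpin1-/- liver (SD, n = 3), with a log2 difference of 0.94 (SE 0.22, limma adjusted p = 0.015).

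Ndufaf3 was at 17.8, 29.8 and 29.7 RPKM in fasted Lpin1+/+ liver, above all 3 Lpin1-/- values (-1.11, SE 0.26, limma adjusted p = 0.014). Ndufaf7 (chr17:78937136-78948052, plus strand), a methyltransferase that acts during complex I assembly, was at 7.39, 11.2 and 11.2 RPKM against 5.47, 3.94 and 5.28 RPKM (-0.88, SE 0.22, limma adjusted p = 0.018). In each of the 5 genes every Lpin1-/- library lay on one side of every Lpin1+/+ library. The 5 were picked by adjusted p from these same libraries, so this describes them and is no further test.

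The counts in fasted liver moved with the libraries and the scaling. Without fasted Lpin1+/+ replicate 1 and fasted Lpin1-/- replicate 1, an alternative chosen after seeing the data, 0 members were higher and 3 lower by limma, the third being Sdhc at -0.68 (adjusted p = 0.043). Ndufaf3 and Ndufaf7 were still called, at -1.28 and -1.13, whereas Ndufaf6 was at 0.76, Ndufaf4 at 0.69 and Ndufa4l2 at 0.83, with limma adjusted p of 0.061, 0.12 and 0.072. The median of the members then changed sign, from 0.16 to -0.27. With the libraries rescaled, the split over all genes moved from 648 higher and 1520 lower to 1059 and 1199, and 3 members (Ndufaf4, Ndufaf6 and Ndufa4l2) were higher and 0 lower by limma. Ndufaf3 was then at -0.92 and Ndufaf7 at -0.71, with limma adjusted p of 0.059 and 0.094. The count of 5 became 1, Ndufaf6, without fasted Lpin1+/+ replicate 3, and 2, Ndufaf4 and Ndufaf6, without fasted Lpin1-/- replicate 2.

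**Figure D4:**
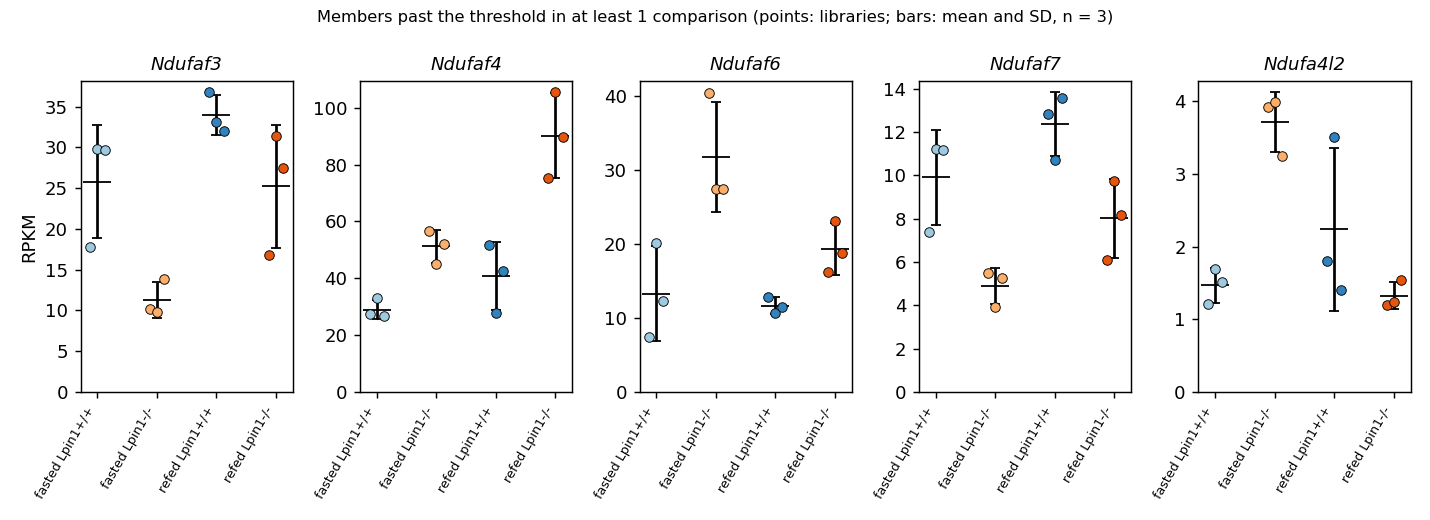
RPKM of the 5 members that passed the threshold in at least 1 comparison, in each library of the 4 groups (points), with the mean and SD of 3 libraries (bars). The vertical axes start at 0. Ndufaf4 is highest in refed Lpin1-/- liver at 75.3 to 105 RPKM, Ndufaf3 and Ndufaf7 are lowest in fasted Lpin1-/- liver, and Ndufaf6 and Ndufa4l2 are highest there.

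In refed liver 6.67% of all genes differed between the genotypes, and 1 of the 87 members did. Ndufaf4 was at 51.8, 27.9 and 42.4 RPKM in Lpin1+/+ and at 75.3, 105 and 89.6 RPKM in Lpin1-/- liver, a 2.21-fold difference in mean level (1.16, SE 0.23, limma adjusted p = 0.014). It was the 1 member called for genotype in both states, and of 19 alternatives the call held in 17 in refed and in 12 in fasted liver. No other member passed. Of those called in fasted liver, Ndufaf6 was at 12.9, 10.7 and 11.5 RPKM in refed Lpin1+/+ and at 16.2, 23.1 and 18.8 RPKM in refed Lpin1-/- liver. Ndufaf7 was at 12.8, 10.7 and 13.6 against 6.11, 9.75 and 8.19 RPKM, and Ndufaf3 at 36.7, 33.1 and 32.0 against 16.8, 31.4 and 27.5 RPKM. Each kept its fasted direction without overlap. The refeeding differences of Ndufa4l2 are given below. Cox6b2 was at 2.41, 4.15 and 1.41 RPKM in Lpin1+/+ and at 0.294, 0.529 and 0.681 RPKM in Lpin1-/- liver, without overlap (-1.22, SE 0.36, limma adjusted p = 0.067). Sdhd was at 337, 209 and 252 RPKM against 291, 520 and 460 RPKM, with overlap (0.66, SE 0.28, limma adjusted p = 0.19). Atp5a1 was at 455, 345 and 521 RPKM against 651, 585 and 621 RPKM, without overlap (0.51, SE 0.21, limma adjusted p = 0.17). The median member was at 0.08 and the median of all genes at -0.07. The count of 1 became 0 without refed Lpin1-/- replicate 2 or 3 and 2, with Cox6b2 lower, without fasted Lpin1+/+ replicate 1 or fasted Lpin1-/- replicate 1.

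Whether the response to refeeding differed between the genotypes was tested as an interaction, which passed for 1.28% of all genes and for 0 of the 87 members by limma, with 1 at an unadjusted p under 0.05. That member was Ndufa4l2. Its refeeding difference was 0.34 in Lpin1+/+ and -1.02 in Lpin1-/- liver, so that the responses differed by -1.36 (SE 0.32, limma adjusted p = 0.062). With the libraries rescaled the difference was -1.47 and the adjusted p 0.037.

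Genes that act with the complexes but lie outside the symbol stems gave a different count. Of 41 tested assembly factors, 15 (36.6%) rose with refeeding in Lpin1-/- liver and none fell, beside 17.8% and 2.92% of all genes. The median of the 41 was 0.60, beside -0.12 for the members and 0.25 for all genes. Taco1, a translational activator of the mitochondrially encoded Cox1, was at 3.45, 5.73 and 7.61 RPKM in fasted and at 19.7, 21.8 and 17.5 RPKM in refed Lpin1-/- liver (1.70, SE 0.26, limma adjusted p = 0.0018). Bcs1l, which inserts the Rieske protein into complex III, was at 3.40, 3.44 and 4.07 RPKM in fasted and at 6.96, 11.2 and 10.3 RPKM in refed liver (1.15, SE 0.21, limma adjusted p = 0.0045). Surf1, Sco1, Cox10 and Cox15, which serve haem and copper insertion or early assembly in complex IV, rose by 0.68 to 1.45. Of other genes for copper delivery, Sco2 was at 158, 268 and 244 RPKM in fasted and at 151, 139 and 144 RPKM in refed Lpin1-/- liver (-0.59, SE 0.25, limma adjusted p = 0.12), and Cox17 at 326, 176 and 181 against 120, 220 and 184 RPKM. In fasted liver 9 of the 41 (22.0%) were lower in Lpin1-/- and none higher, beside 13.2% lower and 5.63% higher among all genes. Among the 9 were Taco1 with a difference of -1.52, Cox15 with -1.48, Acad9 with -1.28 and Bcs1l with -1.27. With the libraries rescaled, 6 rose and 1 fell with refeeding in Lpin1-/- liver, beside 1024 and 706 of the 11507 genes. In fasted liver 6 were then lower and 0 higher in Lpin1-/-, beside 1199 and 1059 genes. In Lpin1+/+ liver 0 of the 41 changed with refeeding by limma, with 3 at an unadjusted p under 0.05.

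Of 9 further genes of the chain, 1 rose with refeeding in Lpin1-/- liver, beside 17.8% of all genes. In fasted Lpin1-/- liver 2 of the 9 were lower, beside 13.2% of all genes. The 1 that rose was Gpd2, the mitochondrial glycerol-3-phosphate dehydrogenase (1.17, SE 0.27, limma adjusted p = 0.013). The 2 lower in fasted Lpin1-/- liver were Gpd2 and Etfdh, which both feed electrons to coenzyme Q. Etfdh was at 223, 191 and 218 RPKM in fasted Lpin1+/+ and at 76.0, 99.3 and 106 RPKM in fasted Lpin1-/- liver (-1.17, SE 0.21, limma adjusted p = 0.0033). Of 13 genes of coenzyme Q synthesis, 5 rose with refeeding in Lpin1-/- liver (Adck4, Coq3, Coq5, Pdss1 and Pdss2), beside 17.8% of all genes, and 3 were lower in fasted Lpin1-/- liver (Coq3, Coq9 and Pdss2), beside 13.2%. With the libraries rescaled, 0 rose and 1 fell with refeeding in Lpin1-/- by limma, beside 1024 and 706 of the 11507 genes. In fasted Lpin1-/- liver 1 was then higher and 2 were lower, beside 1059 and 1199 genes. Adck3, at 141, 97.6 and 98.7 RPKM in fasted and 45.2, 30.0 and 38.9 RPKM in refed Lpin1+/+ liver, was the 1 gene of all these lists that changed with refeeding in Lpin1+/+ (-1.54, SE 0.26, limma adjusted p = 0.017).

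Of 16 tested regulators of mitochondrial gene expression, 4 rose and 1 fell with refeeding in Lpin1-/- liver, beside 17.8% and 2.92% of all genes. Esrra, the estrogen-related receptor α, was at 23.7, 28.8 and 28.6 RPKM in fasted and at 37.9, 66.1 and 51.9 RPKM in refed Lpin1-/- liver (0.89, SE 0.22, limma adjusted p = 0.016). It was at 27.1, 22.8 and 17.7 RPKM in refed Lpin1+/+ liver, below all 3 refed Lpin1-/- values (1.16, SE 0.22, limma adjusted p = 0.012). Ppargc1b, the coactivator PGC-1β, was at 1.84, 4.60 and 5.76 RPKM in fasted and at 0.865, 0.545 and 0.443 RPKM in refed Lpin1-/- liver (-1.56, SE 0.33, limma adjusted p = 0.0085). Fasted Lpin1+/+ liver had 2.0, 0.452 and 0.662 RPKM, which overlapped the fasted Lpin1-/- range (1.30, SE 0.33, limma adjusted p = 0.020). With the libraries rescaled, 0 of the 16 rose and 1 fell with refeeding in Lpin1-/- liver, beside 1024 and 706 of the 11507 genes.

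Of 14 genes of the TCA cycle, which supplies NADH and succinate to the chain, 3 rose with refeeding in Lpin1-/- liver, beside 17.8% of all genes. In fasted Lpin1-/- liver 2 were higher and 2 lower, beside 5.63% and 13.2% of all genes. In refed Lpin1-/- liver 3 were higher and 1 lower, where 6.67% of all genes differed. With the libraries rescaled, 0 rose by limma (6 had an unadjusted p under 0.05 before rescaling), beside 1024 of the 11507 genes. Then 3 were higher and 0 lower in fasted liver, beside 1059 and 1199 genes, and 4 higher and 1 lower in refed liver, beside 414 and 414. Idh3a, a catalytic subunit of isocitrate dehydrogenase, was higher in Lpin1-/- by 1.25 in fasted and by 1.74 in refed liver, and Fh1, the fumarase, by 1.66 and 1.91 (limma adjusted p between 0.00048 and 0.00088). Of 12 genes for the outer membrane and import, 6 rose with refeeding in Lpin1-/- liver (Tomm22, Tomm40, Tomm70a, Vdac1, Vdac2 and Vdac3), beside 17.8% of all genes. With the libraries rescaled 1 of the 12 rose, beside 1024 of the 11507 genes.

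The promoters were also searched for motifs, as a description. The part of these motifs in the shared variation of the members was not tested. RefSeq promoters of 250 bases before to 50 after the start (GRCm38.p6) were matched to 74 of the 87 members, taking the first promoter listed for each gene. The binding motif of NRF1, a regulator of nuclear genes for mitochondrial proteins, was searched on either strand as the letters in capitals in the windows shown here, with any base in the sixth place, and was in 18 of the 74 (24.3%) and in 1293 of 27025 promoters of all genes (4.78%). The YY1 letters AANATGGCG were in 9 of the 74 and in 2.51% of all, the ETS letters CCGGAAGT in 5 and in 4.00%, and the ERR letters TCAAGGTCA in 2, Sdhd and Atp5g3, and in 0.407%. By complex, the NRF1 letters were in 7 of 32 promoters of complex I, 2 of 3 of complex II, 1 of 5 of complex III, 1 of 12 of complex IV, 5 of 14 of complex V and 2 of 8 of the assembly or auxiliary factors. A match describes the letters alone. Windows upstream of the start are shown for the 1 member called for genotype in both states and for 4 structural subunits of different complexes, 5′ to 3′ along the gene, with the NRF1 letters in capitals.
Ndufaf4 (chr4:24897945-24898004, plus strand): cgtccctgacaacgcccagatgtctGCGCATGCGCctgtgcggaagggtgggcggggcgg
Ndufa11 (chr17:56717677-56717736, plus strand): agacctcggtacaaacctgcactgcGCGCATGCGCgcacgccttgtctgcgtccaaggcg
Sdhd (chr9:50603894-50603953, minus strand): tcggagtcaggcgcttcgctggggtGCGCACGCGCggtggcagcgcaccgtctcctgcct
Cox6a1 (chr5:115349041-115349100, minus strand): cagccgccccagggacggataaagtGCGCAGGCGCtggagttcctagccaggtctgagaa
Atp5k (chr5:108434415-108434474, minus strand): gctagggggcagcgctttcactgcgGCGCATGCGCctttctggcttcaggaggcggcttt
Ndufaf4, Ndufa11 and Atp5k share the full run of capitals.

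The members were also compared for skipped exons, since the authors deposited for each event the reads that include and the reads that skip an exon. Inclusion is the percentage of transcripts with the exon after scaling for the length of each form. Limma was applied to the log2 of inclusion over skipping reads to compare the genotypes, for events with at least 10 reads in every library. In fasted liver 852 events in 80 member genes were tested and 83 passed, or 9.74%, against 10.8% of all 69644 events. Of the 83, 61 had lower inclusion in Lpin1-/- (7.54% of all events did), and the 83 came from 30 genes and 38 skipping junctions, as many events share a junction. In refed liver 15 of 818 member events passed, or 1.83%, against 1.03% of all 65231 events, 12 of them with lower inclusion (0.858% of all events). Of the 15, 11 shared 1 junction of Atp5g3. The share of member events was thus near that of all genes in fasted liver.

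The differences were small for most events. In fasted liver 52 of the 83 differed by less than 1 percentage point of inclusion, and 29 rested on a mean of fewer than 5 reads of the rarer form. By size of the difference, the leading events included those in Cox4i1, Atp5g2 and Ndufs7. A 142-base exon of Cox4i1 (chr8:120671003-120671144), listed in a non-coding transcript, was included in 66.5% ± 21.4 of the relevant transcripts in fasted Lpin1+/+ and in 16.1% ± 9.10 in fasted Lpin1-/- liver (SD, n = 3, limma adjusted p = 0.027), from 1, 4 and 6 skipping reads against 174, 76 and 23. The same skipping junction leaves out the 168-base coding exon of Cox4i1, whose inclusion was 99.98% and 99.6%, so that it stayed a small share of Cox4i1 transcripts. A 69-base exon of Atp5g2 (chr15:102667711-102667779) that holds the start of the coding sequence was included in 94.8% ± 4.66 and 68.8% ± 6.60 (limma adjusted p = 0.040), from 3, 0 and 7 skipping reads against 23, 13 and 24. The Atp5g2 call held in 3 of 9 alternatives.

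Junctions that leave out a coding exon were described next. Of the 22 junctions that left out an exon listed as coding and were called in either state, 20 were called in fasted liver, in 18 genes, and 20 of these 20 had lower inclusion in Lpin1-/-. Mean inclusion of these exons in fasted Lpin1+/+ liver was already 94.8% to 100%, which left little room for a higher value, and of all 7519 events called in fasted liver 5249 were lower. The 2 called in refed liver, 1 of them in Atp5g3, were lower in Lpin1-/- as well. The exons shown here were chosen after their values were seen, 3 of them for at least 75 skipping reads in every fasted Lpin1-/- library and that of Atp5g3 for its call in refed liver, and are in lower case throughout since the whole exon is left out. All coordinates are on GRCm38 and the letters are from the GENCODE M21 transcripts.
Atp5k exon 3 of 4 (chr5:108433731-108433829, minus strand, 99 bases, a multiple of 3): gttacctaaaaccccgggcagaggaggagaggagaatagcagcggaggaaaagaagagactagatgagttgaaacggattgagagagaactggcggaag
Atp5d exon 3 of 4 (chr10:80145219-80145307, plus strand, 89 bases): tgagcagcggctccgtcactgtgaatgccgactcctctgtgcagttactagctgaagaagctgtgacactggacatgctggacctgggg
Ndufs7 exon 3 of 8 (chr10:80253074-80253157, plus strand, 84 bases, a multiple of 3): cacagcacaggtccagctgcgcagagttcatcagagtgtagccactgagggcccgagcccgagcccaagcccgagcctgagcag
Atp5g3 exon 4 of 5 (chr2:73909184-73909377, minus strand, 194 bases): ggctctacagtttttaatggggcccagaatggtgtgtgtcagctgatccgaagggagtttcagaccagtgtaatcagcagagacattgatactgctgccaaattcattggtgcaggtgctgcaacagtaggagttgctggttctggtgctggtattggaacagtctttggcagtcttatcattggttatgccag

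Atp5k encodes subunit e of the ATP synthase, which holds pairs of the enzyme together in the cristae. Its 99-base exon was skipped in 0.219%, 0.250% and 0.318% of transcripts in fasted Lpin1+/+ liver and in 3.52%, 4.12% and 2.82% in fasted Lpin1-/- liver, from 6, 19 and 18 skipping reads against 283, 190 and 123. The log2 difference of the ratio was -3.72 (SE 0.70, limma adjusted p = 0.0063), and the call held under all 9 alternatives. In refed liver there were 14, 26 and 7 skipping reads in Lpin1+/+ and 94, 98 and 113 in Lpin1-/-, without overlap (-2.78, SE 0.70, limma adjusted p = 0.11).

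Atp5d encodes the δ subunit of the central stalk. It had 17, 25 and 25 reads that skip its 89-base exon in fasted Lpin1+/+ and 165, 152 and 154 in fasted Lpin1-/- liver, and its inclusion was 99.6% ± 0.0588 and 97.2% ± 0.0781 (SD, n = 3, -2.73, SE 0.69, limma adjusted p = 0.026). Ndufs7 had 16, 14 and 22 skipping reads against 75, 83 and 86 (inclusion 98.8% ± 0.285 and 91.9% ± 0.882, limma adjusted p = 0.022). In refed liver the exons of Atp5d and Ndufs7 were skipped more often in every Lpin1-/- library than in any Lpin1+/+ library, with adjusted p of 0.21 and 0.099 by limma. Not all coding exons called in fasted liver stayed apart in this way. For the 145-base exon of Sdhd the inclusion difference was -0.70 percentage points in fasted and 0.01 in refed liver. It was -1.20 and -0.03 for the 130-base exon of Uqcrc1, and -2.04 and -0.10 for the 68-base exon of Ndufa9. Whether the genotype difference itself differed between fasted and refed liver was not tested.

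Atp5g3, the main gene for the c subunit in these libraries, differed among mice. Its 194-base exon had 1, 0 and 2 skipping reads in fasted Lpin1+/+ liver and 313, 271 and 0 in fasted Lpin1-/- liver, so that 2 of the 3 Lpin1-/- libraries were far above the others and the third was at 0 (-4.61, SE 1.91, limma adjusted p = 0.15). In refed liver there were 0, 0 and 0 in Lpin1+/+ and 78, 34 and 82 in Lpin1-/- (-6.41, SE 0.67, limma adjusted p = 0.0096), or 0.511% of transcripts on average in Lpin1-/-. The largest drop among the called refed events was in a 36-base unlisted exon within this one, counted on the same skipping reads, with an inclusion of 100% against 17.7% ± 10.6. In refed liver Atp5sl was the other gene with a difference of over 10 percentage points: an unlisted 87-base exon was included in 66.1% ± 7.05 in Lpin1+/+ and in 100% in Lpin1-/- (limma adjusted p = 0.026), from 2, 4 and 2 skipping reads against 0, 0 and 0. The refed calls were fragile: 0 member events were called by limma without Lpin1+/+ list position 1, 2 or 3 or Lpin1-/- list position 1 or 3, settings in which 0 of all events were called, and 11 without Lpin1-/- list position 2. In fasted liver the 83 became 25 to 33 without any 1 library other than Lpin1-/- list position 3 (27, 25 and 33 without Lpin1+/+ list position 1, 2 and 3, and 31 without Lpin1-/- list position 1 or 2), and 98 without that one.

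**Figure D5:**
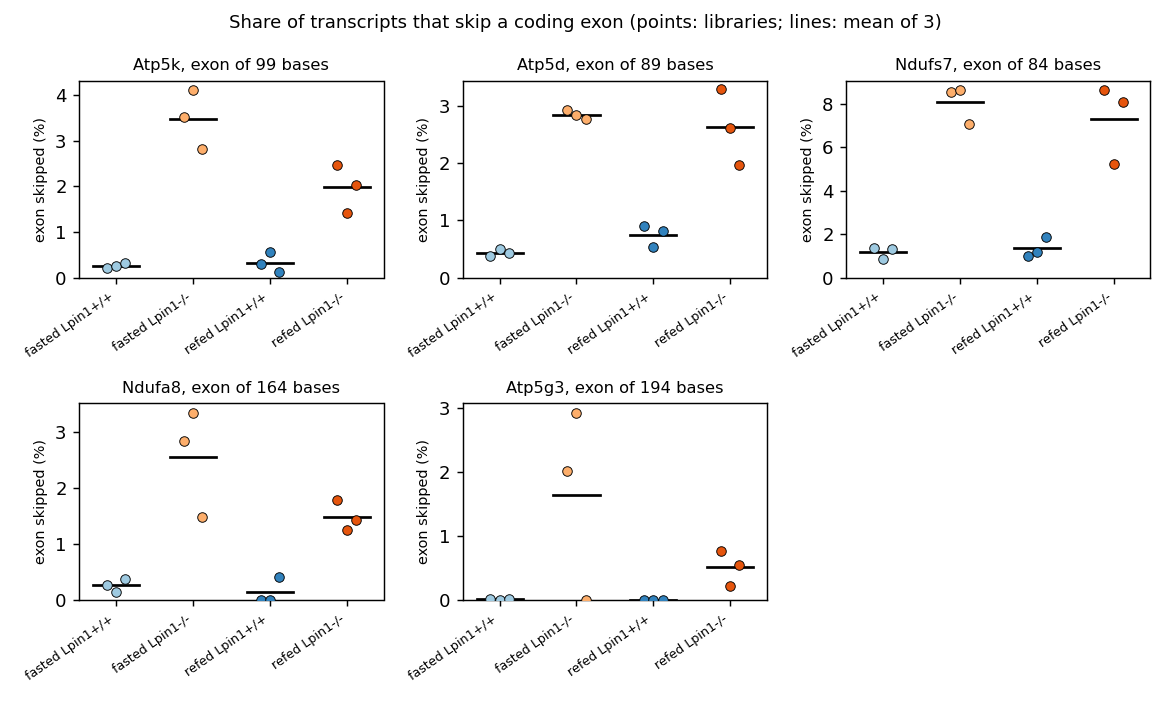
Percentage of transcripts that skip a coding exon of 5 member genes, for each library (points) and as the mean of 3 (lines), in the 4 groups; vertical axes start at 0. For Atp5k, Atp5d, Ndufs7 and Ndufa8 every Lpin1-/- library lies above every Lpin1+/+ library of the same state, while for Atp5g3 one fasted Lpin1-/- library is at 0.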

How the data were processed

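Liver RNA of 12 mice was sequenced by the authors as paired reads of 69 bases, which were aligned with HISAT2 2.0.5 to GRCm38 and counted per gene with HTSeq 0.6.0, as the study's methods and the submitters' processing notes state. The authors deposited RPKM values, which are normalized by transcript length and mapped reads. They also deposited skipped-exon tables of rMATS (version not given in the sources used here) with counts of inclusion and skipping reads per event, in lists of 3 libraries with no replicate numbers. The 2 genotypes in these lists were told apart by the comparison each table is named for and by lists shared between tables. Comparison tables of the authors' own results were not used.

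The 11507 genes that averaged 0.5 RPKM or more were tested on log2(RPKM + 1) with limma 3.58.1 (R 4.3.3), in 1 fit of the 4 groups with a mean-variance trend, with Benjamini-Hochberg adjustment and a threshold of 0.05. Fold changes on this scale understate those of low genes. Exon events were tested on the log2 ratio of length-scaled counts, with 0.5 added. The replicates are mice, and limma's p-values set a group difference against the spread between mice within groups. For expression that spread was pooled over the 4 groups, which differed in it, and moderated over all genes tested. Intervals for depth were not given, since RPKM holds no counts; the relative depth came from the steps of low values. Scripts were tested on simulated data. Figures were drawn with matplotlib 3.10.9 in Python 3.11.15. Alternatives changed the pseudocount, the filter, the scaling, the libraries in the fit and a replicate block.

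Named genes were representatives of each complex, paralogue sets, up to 6 called members in each direction and comparison, the largest difference per complex, and the highest and lowest levels. Members and lists were chosen with earlier results of these data known. Pairing was checked by correlating the deviations of same-numbered libraries. In refed liver these were 0.16 to 0.30 for the genotypes, so the numbers may pair those libraries, and the replicate block kept Ndufaf4 there. The values of 1 member gene are not reported here, though it is included in the counts.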

Additional observations from a re-analysis of the deposited data

How the results depend on the processing

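The count of members past the threshold in refed Lpin1-/- against fasted Lpin1-/- liver was 3 and became 1 with the libraries rescaled. For the genotypes in fasted liver it was 5 and became 3 when rescaled, 2 with only the 6 libraries compared and 3 without both extreme fasted libraries. For the genotypes in refed liver it was 1 and became 2 with a pseudocount of 0.1 and 2 without both extreme fasted libraries, Cox6b2 being the gene added each time. For the interaction it was 0 and became 1 when rescaled. Leaving out 1 library at a time gave 0 to 0 members for refeeding in Lpin1+/+, 1 to 6 for refeeding in Lpin1-/-, 1 to 6 and 0 to 2 for genotype in fasted and refed liver, and 0 to 0 for the interaction. The 83 exon events in fasted liver became 25 to 98, and the 15 in refed liver 0 to 11. The latter became 30 with 1 added to each count, and 39 with a mean of at least 5 reads of the rarer form, a filter chosen after seeing the data. The causes were not tested. With a replicate block the counts were 0, 2, 4, 1 and 0, and the block ended the call of Ndufaf4 for refeeding in Lpin1-/- (limma adjusted p = 0.0545) and for genotype in fasted liver (0.0572). Same-numbered libraries correlated at -0.02 to 0.25 for refeeding in Lpin1+/+, -0.44 to -0.20 for refeeding in Lpin1-/- and -0.47 to -0.23 for genotype in fasted liver, and none of the last 2 sets correlated best with its own number. None of the called members, nor of the exons followed across alternatives, reversed under those run. Depth limits the exon events too, as 29 of 83 in fasted liver rested on a mean under 5 reads of the rarer form.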
